A study of Mus musculus with 2 samples.

Results

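The 7 haemoglobin genes described here are Hba-a1, Hba-a2 and Hba-x of the α-like locus and Hbb-bs, Hbb-bt, Hbb-y and Hbb-bh1 of the β-like locus, each matched by its gene symbol among the 31053 genes of the count matrices. They were read in single cells in which these genes together held 50% or more of the transcripts, called globin-rich cells, of which there were 961 among 24244 kept cells. The cells came from dissociated mouse eye cups at e15.5, with 1 library of 3 pooled eye cups for each genotype. Control embryos were Myrf fl/fl. Mutant embryos were Rx>cre Myrf fl/fl. Both carried the floxed Myrf alleles, and the mutant also carried Cre under Rx regulatory sequence, which is active in the early eye field. Each transcript was counted once as a unique molecular identifier (UMI) read from its 3′ end, so that counts of different genes carry no factor for transcript length. With 1 library per genotype, nothing could be tested between genotypes, cells were not replicates, and every interval given is an exact 95% interval that covers counting error only.

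Haemoglobin is built from α-like and β-like chains, and the genes of each locus are used in turn during development. Primitive erythroid cells, which arise in the yolk sac, make the embryonic chains encoded by Hba-x (ζ), Hbb-y (εy) and Hbb-bh1 (βh1), and they go on maturing in the circulation. Definitive erythroid cells, which arise mainly in the fetal liver at this age, make the adult chains encoded by Hba-a1 and Hba-a2 (α) and by Hbb-bs and Hbb-bt (β).

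The genes lie in 2 clusters. On mm10, the α-like genes are on the plus strand of chr11, with Hba-x at chr11:32276400-32278116, Hba-a1 at chr11:32283511-32284465 and Hba-a2 at chr11:32296489-32297298. The β-like genes are on the minus strand of chr7, with Hbb-bt at chr7:103812524-103813996, Hbb-bs at chr7:103826534-103828096, Hbb-bh1 at chr7:103841637-103843164 and Hbb-y at chr7:103851749-103853216. RefSeq promoter sequences (GRCm38.p6) were matched for 6 of the 7 genes. The 150 bases before the RefSeq start site are shown for 5 of them, whose output is compared below, and Hba-a2 is left out because its window is nearly the same as that of Hba-a1. They are printed with short motifs on either strand in capitals. One motif was CACCC, a core bound by Klf1, an erythroid activator. Another was the CCAAT box. The third was GATAA, the core bound by Gata1, and the last was ATAAA, the end of a TATA box. The antisense CCAAT at -80 of Hbb-bt directly abuts its sense copy at -75.
Hbb-y: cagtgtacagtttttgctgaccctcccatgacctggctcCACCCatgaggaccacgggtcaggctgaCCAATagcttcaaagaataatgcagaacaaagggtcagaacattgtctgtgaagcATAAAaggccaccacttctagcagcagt
Hba-x: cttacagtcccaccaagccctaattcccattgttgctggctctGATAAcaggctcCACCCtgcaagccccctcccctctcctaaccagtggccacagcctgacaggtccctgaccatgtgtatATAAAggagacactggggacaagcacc
Hbb-bs: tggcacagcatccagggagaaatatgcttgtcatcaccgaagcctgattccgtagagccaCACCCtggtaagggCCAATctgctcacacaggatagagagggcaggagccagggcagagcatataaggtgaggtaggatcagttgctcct
Hbb-bt: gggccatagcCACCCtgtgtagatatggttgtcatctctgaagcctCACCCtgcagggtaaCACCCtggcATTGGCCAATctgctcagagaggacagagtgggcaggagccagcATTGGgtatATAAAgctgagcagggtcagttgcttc
Hba-a1: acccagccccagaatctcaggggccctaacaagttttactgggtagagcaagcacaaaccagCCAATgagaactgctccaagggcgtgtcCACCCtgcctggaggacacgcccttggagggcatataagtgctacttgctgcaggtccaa

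Those windows are chr7:103853208-103853357, chr11:32276450-32276599, chr7:103827929-103828078, chr7:103813924-103814073 and chr11:32283522-32283671 in the order shown. The RefSeq start sites differ from the ends of the gene spans given above, and the windows of Hba-x, Hba-a1 and Hbb-bs lie inside those spans. CACCC was in 6 of 6 member promoters and in 37.4% of 32851 promoter windows of the same length. CCAAT was in 5 of 6 members and in 24.5% of all windows, ATAAA in 3 of 6 and 24.1%, and GATAA in 1 of 6 and 13.3%. Within Hbb-bt, CACCC occurred 3 times, where Hbb-bs and Hbb-y each had 1. The Hba-a1 and Hba-a2 windows shared 147 of 150 bases at the best shift, and the Hbb-bs and Hbb-bt windows 106 of 150. A motif match describes the letters only.

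The libraries held 13017 (control) and 13880 (mutant) barcodes, and the 7 genes took 7.01% and 5.99% of their UMIs. Over all kept cells Myrf, the targeted gene, was counted 423 times (control) and 149 times (mutant), of which globin-rich cells held 1 and 2. These 3′ counts were not checked against the deleted exons. Of the globin-rich cells, 1 of 505 in the control and 40 of 456 in the mutant had a UMI of a Y-linked gene, so the libraries differed in Y-linked UMIs as well as in genotype. The libraries shared 69 barcodes, of which 5 were globin-rich in the control and 1 in the mutant.

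Few cells lay between the globin-rich cells and the rest. They were 505 of 11576 kept cells in the control (4.362%, interval 3.998 to 4.751) and 456 of 12668 in the mutant (3.6%, 3.282 to 3.939), a ratio of mutant to control of 0.825 (0.725 to 0.938). Between 10% and 50% globin there were 69 cells in each library, whereas 381 and 337 cells had 90% or more. The cells nearest the threshold stood at 49.1% and 50.8% in the control and at 49.6% and 50.1% in the mutant. In dissociated tissue the number of blood cells left in a sample and the number present in the eye cannot be told apart.

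Embryonic and adult β-like genes divided the globin-rich cells into separate sets. The embryonic share is Hbb-y and Hbb-bh1 as a percentage of the 4 β-like genes, and a cell with 50% or more was given the embryonic profile. In the control the highest share among adult-profile cells was 2.523% and the lowest among embryonic-profile cells 70.6%, and in the mutant these were 0.681% and 55.0%. No cell of either library lay between 5% and 50%. The embryonic profile was held by 75 of 505 control cells (14.85%, 11.86 to 18.26) and by 29 of 456 mutant cells (6.36%, 4.3 to 9.01), a ratio of 0.428 (0.269 to 0.665). At a globin share of 80% these were 45 of 438 (10.27%) and 15 of 379 cells (3.958%), since many embryonic-profile cells lay between 50% and 80% globin. As a share of kept cells, adult-profile cells were 3.715% (3.377 to 4.075) and 3.371% (3.063 to 3.7), and embryonic-profile cells 0.648% (0.510 to 0.811) and 0.229% (0.153 to 0.329). The intervals of the 2 libraries overlapped for adult-profile cells and not for embryonic-profile cells. Each library being 1 pool of 3 eye cups, the genotype cannot be told apart from the pool.

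**Figure D1:**
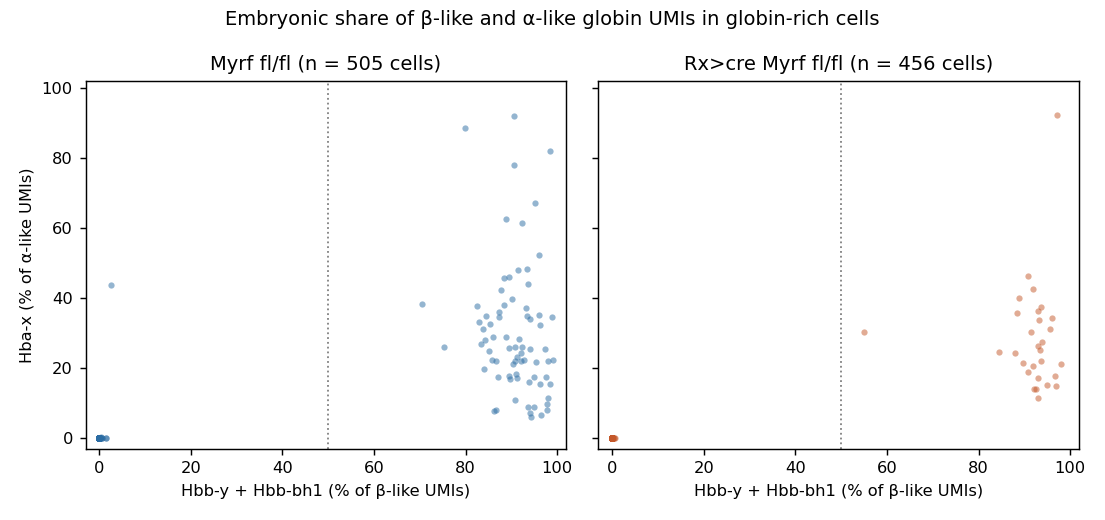
Each point is 1 globin-rich cell, with the embryonic share of its β-like UMIs on the x axis and of its α-like UMIs on the y axis (both in percent), for the control (505 cells) and the mutant (456 cells); the dotted line is the 50% profile threshold. Cells fall near 0 on both axes or above 50% on the x axis, and 1 control cell sits at 2.52% and 43.7%.

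Hba-x, which took no part in the profile rule, followed the same division. All 75 and all 29 embryonic-profile cells had Hba-x UMIs, from 30 to 2946 per cell with a median of 555 in the control, and from 103 to 1673 with a median of 588 in the mutant. Of the adult-profile cells, 419 of 430 and 423 of 427 had none. Across globin-rich cells the α-like and β-like embryonic shares had a Pearson r of 0.816 in 505 control cells and 0.874 in 456 mutant cells, a description of cells that share a library and fall into separate sets. Within the embryonic-profile cells r was -0.156 (75 cells) and 0.0167 (29 cells).

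One control cell departed from this rule. It held 1006 Hba-x UMIs, 43.7% of its α-like UMIs, together with 96 Hbb-y, 3498 Hbb-bs and 249 Hbb-bt UMIs among 6673 in all. It accounted for 1006 of the 1024 Hba-x UMIs in the 430 adult-profile control cells. The mutant had no such cell, its adult-profile cells reaching 3 Hba-x UMIs.

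Hbb-y, the main embryonic β-like gene, dominated the embryonic-profile cells. It was the most abundant member in 67 of 75 control and 25 of 29 mutant cells, with 134 to 13803 UMIs per cell (median 2901) and 77 to 12141 (median 3149). Hba-x led in the other 8 control cells and in 1 mutant cell, and Hba-a1 in 3 mutant cells. By contrast, Hbb-bs was the most abundant member in each of the 430 and 427 adult-profile cells, with medians of 8307.5 and 7863 UMIs.

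**Figure D2:**
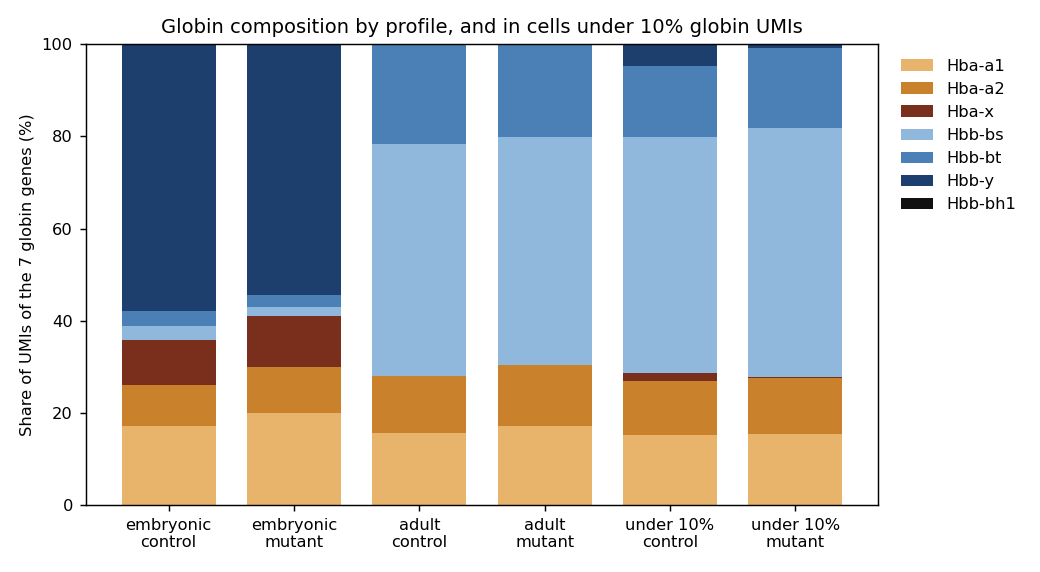
Bars show the share of the summed UMIs of the 7 genes (percent, y axis) in embryonic-profile cells, adult-profile cells and cells under 10% globin of each library. Hbb-y takes 57.7% and 54.2% in the embryonic-profile bars, and Hbb-bs 50.2% and 49.4% in the adult-profile bars.

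The α-like side was more mixed than the β-like side in embryonic-profile cells. Summed over cells, Hba-x made up 27.3% (control) and 27.2% (mutant) of α-like UMIs, against embryonic shares of 89.95% and 92.22% for the β-like genes. Single cells ranged from 6.12% to 92.1% Hba-x in the control (median 25.9%) and from 11.5% to 92.4% in the mutant (median 25.1%). Hba-x was the larger part of the α-like UMIs in only 8 of 75 and 1 of 29 cells. Adult α genes were present in every embryonic-profile cell, with at least 62 (control) and 43 (mutant) UMIs. The sum of α-like over β-like UMIs was 0.557 and 0.698 in embryonic-profile cells and 0.392 and 0.438 in adult-profile cells.

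Hbb-bh1, an embryonic β-like gene that precedes Hbb-y in primitive cells, was at a low level. It supplied 0.148% and 0.198% of the embryonic β-like UMIs of embryonic-profile cells, with a median of 1 UMI per cell in both libraries. The 13 control and 6 mutant cells with 10 or more UMIs carried 79.96% and 73.18% of it. In the control its share of the embryonic β-like UMIs was 0.0799% in the 22 cells with Hba-x under 20% of α-like UMIs, 0.16% in the 45 cells from 20% to 50%, and 0.721% in the 8 cells with 50% or more. In the mutant the first 2 shares were 0.149% (8 cells) and 0.212% (20 cells), and the single cell above 50% had 0 Hbb-bh1 UMIs among 104. Hba-x and Hbb-bh1 shares had a Pearson r of 0.538 and a Spearman rho of 0.416 over 75 control cells, and an r of 0.0703 and a rho of 0.51 over 29 mutant cells, a description of sparse counts in cells of 1 library each.

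A few adult-profile cells held Hbb-bh1 without the other embryonic genes. With 10 or more Hbb-bh1 UMIs there were 6 control cells, at 200, 196, 111, 55, 24 and 14 UMIs, and 3 mutant cells, at 84, 81 and 37. None of these 9 cells had more than 1 Hbb-y UMI, and none had Hba-x. They carried 94.6% of the 634 Hbb-bh1 UMIs of adult-profile control cells and 94.0% of the 215 of mutant cells. Hbb-bh1 was 1.466% of the β-like UMIs in the cell where that share was highest. In cells under 10% globin it had 12 UMIs over 11002 control cells and 0 over 12143 mutant cells. One of the mutant cells had 2849 genes and 64.2% globin, and the other 8 cells had 314 to 722 genes.

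Adult β-like genes were also read in nearly all embryonic-profile cells. Hbb-bs and Hbb-bt together gave a median of 8.86% of β-like UMIs in the control (range 0.863% to 29.4%) and 7.06% in the mutant (1.96% to 45.0%). Cells under 10% globin were taken as a measure of what free RNA adds to a droplet, since no empty droplets were measured. In them the 99th percentile of Hbb-bs and Hbb-bt together was 9 UMIs in both libraries. The embryonic-profile cells passed it in 72 of 75 and 28 of 29 cases, with medians of 304 and 153 UMIs. Median depths were 5902 and 7081 UMIs in embryonic-profile cells and 9528 and 8738 in cells under 10% globin.

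A cell was called co-expressing when each kind made up at least 5% of its β-like UMIs and both exceeded the free RNA level. There were 58 such cells in the control (11.49% of globin-rich cells, 8.84 to 14.6) and 23 in the mutant (5.04%, 3.22 to 7.47). The number depended on the threshold, and with each kind at 10% the shares were 5.743% and 1.316%. At a globin share of 80% they were 8.447% and 3.166%. All had the embryonic profile, in which they were 77.3% (66.2 to 86.2) and 79.3% (60.3 to 92.0) of cells. None was found among 430 and 427 adult-profile cells, which allows shares of up to 0.854% and 0.860%.

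In adult-profile cells, Hbb-y was read in about as many cells as among cells under 10% globin. A Hbb-y UMI was found in 11.9% (8.96 to 15.3) of the control cells and 2.58% (1.29 to 4.56) of the mutant cells. The shares in cells under 10% globin were 11.1% and 2.3%. Adult-profile median depths were 17754.5 and 17417 UMIs. No expression of Hbb-y can be read from these shares. The counts per cell reached 96 in the control, in the cell with Hba-x described above, and 1 in the mutant.

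The 2 adult β genes were present in different proportions in the profiles. In adult-profile cells the ratio of Hbb-bs to Hbb-bt was 2.318 in the control and 2.459 in the mutant, summed over cells. In embryonic-profile cells it was 0.875 and 0.666, and in cells under 10% globin 3.362 and 3.088. Hbb-bt exceeded Hbb-bs in 31 of 75 and 13 of 29 embryonic-profile cells and in 0 of 430 and 0 of 427 adult-profile cells. Among cells with 20 or more Hbb-bt UMIs, single embryonic-profile cells ranged from 0.0740 to 7.28 in the control (57 cells, median 1.2) and from 0.0580 to 3.32 in the mutant (24 cells, median 0.96), and adult-profile cells from 1.49 to 17.8 and from 1.45 to 21.2. The ranges therefore overlapped while the medians of 2.37 and 2.54 in adult-profile cells were higher.

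The paired α genes also differed by profile, in the other direction. Hba-a1 over Hba-a2 was 1.932 and 2.038 in embryonic-profile cells and 1.281 and 1.291 in adult-profile cells. Hba-a1 was over 1.5 times Hba-a2 in 72 of 75 and 29 of 29 embryonic-profile cells, and in 12 of 430 and 18 of 427 adult-profile cells. Both gene pairs are close copies whose reads the counting could divide wrongly, so the size of each ratio is uncertain.

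**Figure D3:**
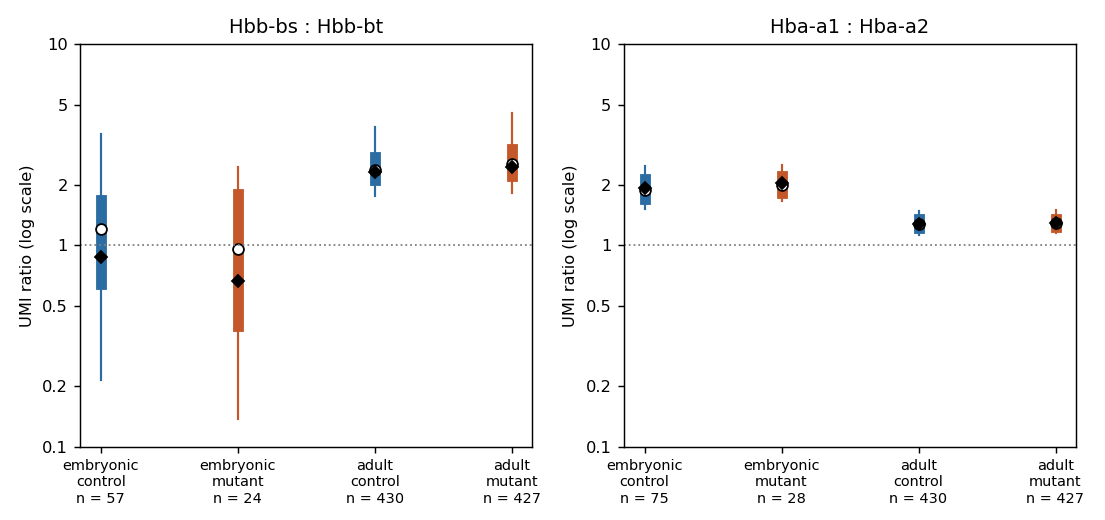
UMI ratios on a log axis for Hbb-bs to Hbb-bt (left) and Hba-a1 to Hba-a2 (right), by profile and library, in cells with 20 or more UMIs of the second gene; white circles are medians over cells, thick bars the middle 50% and thin lines the 5th to 95th percentiles, and diamonds the ratio of summed UMIs over all cells of the profile. The summed Hbb-bs ratio is under 1 in both embryonic-profile sets and over 2 in both adult-profile sets.

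The cell class given by the other genes was checked against erythroid markers. The globin-rich cells of the adult profile lay mainly in 1 cluster named erythroid-like (344 of 430 and 324 of 427 cells), in which 5 of 7 erythroid markers passed 2-fold. The embryonic-profile cells lay mainly in a cluster that stayed unnamed (68 of 75 and 25 of 29), in which 1 of 7 did. That cluster also held 55 and 61 adult-profile cells, so it did not separate the profiles. The erythroid-like cluster held 1 and 2 embryonic-profile cells. Summed over the 7 erythroid markers found in the files, levels were 881 and 1320.6 CPM (UMIs scaled to a common total, here of non-globin UMIs) in embryonic-profile cells and 12347.1 and 10818.7 in adult-profile cells. The embryonic-profile cells are therefore called by their globin genes here.

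Non-globin genes were compared between the profiles in each library, in CPM of non-globin UMIs, and a gene was counted when it differed at least 2-fold in the same direction in both. Of 2557 genes measured, 128 (5.01%) were higher and 283 (11.1%) were lower in embryonic-profile cells. These are counts past a fold, with no test. Scaled to the UMIs of all genes, the split was 375 higher and 96 lower of 2414. On the main scale the median log2 ratio over all genes was -0.28 in the control and -0.44 in the mutant, and on the other scale 0.60 and 0.30.

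Haem synthesis and iron genes were mostly lower in embryonic-profile cells, 8 of 11 measured, with 2 higher, against 11.1% and 5.01% over all genes. Alas2, the erythroid enzyme that starts haem synthesis, had 57 UMIs in embryonic-profile and 5125 in adult-profile cells of the control, and 33 and 5137 in those of the mutant (log2 ratios -3.79 and -2.90). Slc25a37, which carries iron into mitochondria, had 4 and 2429 UMIs (control) and 2 and 1927 (mutant) (log2 -6.55, counting interval -8.42 to -5.19, and -5.53, -8.57 to -3.67). Fech, which inserts the iron, stood at log2 -3.83 and -3.28. The list's medians were -2.06 and -2.54, the second being the bound of Urod, which had 0 UMIs in the mutant embryonic-profile set. At a globin share of 80%, 5 of 9 genes were lower and 0 higher, against 22.0% and 10.4% over all genes, with medians of -2.65 and -1.07. Scaled to the UMIs of all genes the medians were -1.18 and -1.77.

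The 2 higher genes of that list do not make haem. Hmox1, which breaks haem down, had 104 and 36 UMIs in embryonic-profile cells against 3 and 2 in the much larger adult-profile sets (log2 7.82, interval 6.23 to 10.1, and 8.56, 6.60 to 11.7). Fth1, the heavy chain of ferritin, which stores iron, was higher by log2 1.28 (1.24 to 1.32) and 1.41 (1.34 to 1.48). With cells of 1000 or more genes left out Fth1 stood at log2 1.14 and 0.65, and at a globin share of 80% at 1.33 and 0.79, under 2-fold in the mutant both times. The 5 cells with the most Fth1 held 30.3% and 44.3% of its embryonic-profile UMIs. The 5 cells with the most Hmox1 held 59.6% and 72.2% of it.

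Genes of the red cell membrane were lower in 6 of 12 measured and higher in 0 on the main scale, against 11.1% and 5.01% over all genes. With cells of 1000 or more genes left out, 6 of 11 were lower and 1 higher, where over all genes 22.9% were lower and 11.19% higher. Slc4a1, the anion exchanger, had log2 ratios of -2.59 and -3.40. Rhd had 0 and 1 UMIs in embryonic-profile cells against 271 and 296 in adult-profile cells. The list's medians were -2.08 and -1.29.

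Late maturation genes were lower in 9 of 13 and higher in 1, against 11.1% and 5.01% over all genes. Bpgm, which makes 2,3-bisphosphoglycerate, a regulator of oxygen release, stood at log2 -3.69 and -2.19. Bnip3l, which clears mitochondria, stood at -2.21 and -1.11. The member past the fold on the higher side was Pim1, a kinase (1.61 and 1.82). Of 10 genes measured in the list of redox and carbonic anhydrase genes, 5 were lower, among them Gpx1, a glutathione peroxidase (-4.55 and -3.56). The 1 higher gene was Sod1 (1.62 and 2.50). Scaled to the UMIs of all genes, fewer were lower: 6 of 11 haem and iron, 5 of 10 membrane, 5 of 13 late maturation and 3 of 9 redox genes, with 3, 2, 2 and 1 higher. On that scale 3.977% of all genes measured were lower and 15.53% higher. Bnip3l then stood at -1.34 and -0.34, short of the fold in the mutant.

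The depth limited the regulators. Of 6 measured erythroid transcription factors 1 was lower, Lmo2, and 1 higher, Tal1 (log2 3.77 and 1.97), against 11.1% and 5.01% over all genes. Scaled to the UMIs of all genes Lmo2 fell short of the fold, and Tal1 could not be measured with cells of 1000 or more genes left out. Of 12 genes known to act in globin switching, 1 could be measured, Mbd2, and it had ratios of opposite sign (0.99 and -1.01). Bcl11a, a repressor of embryonic globins, had 0 UMIs in embryonic-profile cells of both libraries against 11 and 18 in adult-profile cells, and Sox6, which acts with it, 0 against 18 and 35. With 111243 and 38618 non-globin UMIs in the embryonic-profile sets, a difference in these genes was not detectable. Of 10 proliferation genes, 1 (Mki67) was lower and 0 were higher, a share near the 11.1% lower over all genes. Mki67 had 3 and 4 UMIs in embryonic-profile cells, the 4 from 1 cell, and it fell short of the fold when scaled to the UMIs of all genes.

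The genes whose ratio between profiles was largest, by the smaller of the 2 libraries, were Junb, Hmox1, Neat1, Ddit3, Ppp1r15a, Slc38a2, Hsd3b6, Mfsd11, Gadd45g and Cited2 on the higher side. Junb, an immediate early transcription factor, had 141 and 34 UMIs in embryonic-profile cells and 3 and 1 in adult-profile cells. Ddit3 and Ppp1r15a both act in the integrated stress response, and their log2 ratios were 5.97 and 5.02 for Ddit3 and 4.93 and 5.17 for Ppp1r15a. The 5 cells with the most UMIs held 46.6% and 85.7% of Ddit3 and 42.6% and 70.6% of Junb in embryonic-profile cells. Mitochondrial UMIs had a median of 0.384% (95th percentile 5.65%) in embryonic-profile and 0.365% (1.71%) in adult-profile cells of the control, and 0.149% (2.71%) and 0.345% (2.15%) in those of the mutant, and their part in these ratios was not tested. Neat1, a nuclear long noncoding RNA, had 67 and 21 UMIs against 2 and 12. Among the 10 on the lower side were Slc25a37, March2, Mkrn1, Trim10, Ptp4a3, Fam220a, Ube2c and Slc25a39. Mkrn1, a RING finger protein, had 35 and 9 UMIs against 7112 and 6646, and Slc25a39, a mitochondrial carrier, stood at log2 -3.86 and -4.19.

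**Figure D4:**
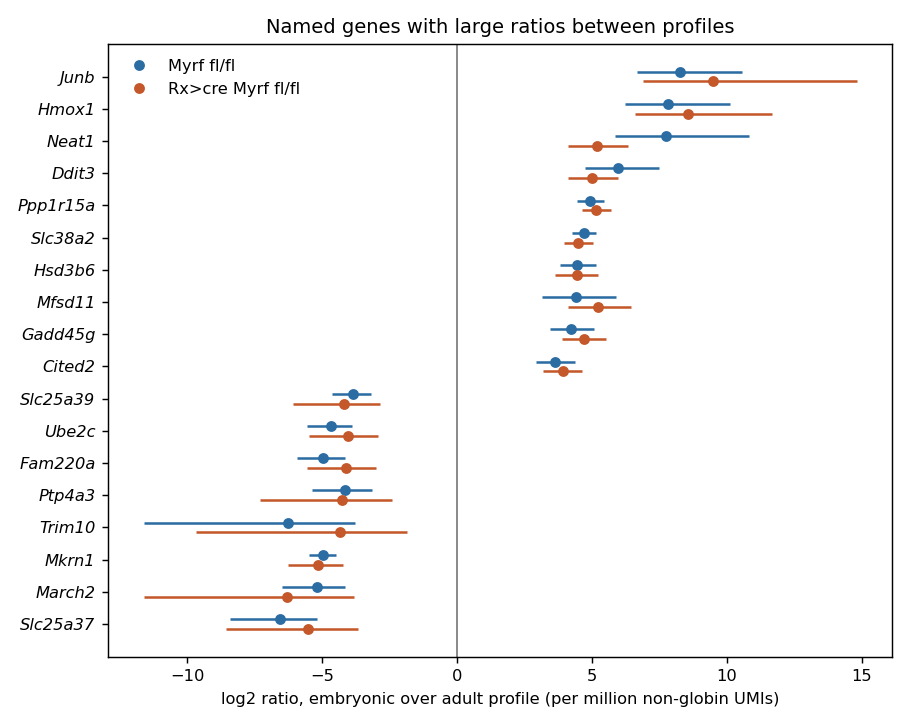
Log2 ratio of embryonic-profile to adult-profile cells in CPM of non-globin UMIs (x axis) for the 10 genes named on the higher side and the 8 named on the lower side, in the control and the mutant; lines are exact 95% counting intervals. Each of these 18 genes lies on the same side of 0 in both libraries, which the choice of genes required.

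Markers of retinal cells were read in both profiles. Retinal progenitor markers summed to 1528.2 (control) and 828.6 CPM (mutant) in embryonic-profile cells and to 2511.2 and 1766.2 CPM in adult-profile cells, lower in the embryonic profile in both libraries. Neurogenic progenitor markers had the same sums of 1528.2 and 828.6 CPM in embryonic-profile cells, from other genes, against 644.8 and 2357 CPM in adult-profile cells, so that their order differed between the libraries. Btg2, which is also in the late maturation list, gave 49 of 170 and 9 of 32 of these UMIs in embryonic-profile cells. In adult-profile cells it gave 25 of 466 and 148 of 1903. These sums are therefore not of retinal genes alone. The part of these markers in the ratios was not tested. Macrophage markers summed to 1 and 7 UMIs in embryonic-profile cells (8.99 and 181.3 CPM, against 65.03 and 16.1 CPM in adult-profile cells), and 1 embryonic-profile cell of the mutant lay in the macrophage-like cluster. Neutrophil or mast cell markers had 1 and 0 UMIs in embryonic-profile cells. Cells with 1000 or more genes numbered 30 and 56 of the adult profile and 5 and 1 of the embryonic profile, and without them 129 genes were higher and 264 lower of 1153. Of the genes counted in all cells, 69 of 128 and 180 of 283 were counted again, and 57 and 72 could not be measured.

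Between genotypes, the summed globin-rich cells gave 428 genes higher (6.78%) and 114 lower (1.81%) in the mutant of 6315 measured. The median log2 ratio over all genes was 0.19. With cells of 1000 or more genes left out the counts were 88 and 93 of 2275, of which 20 and 19 were among the genes counted before. Of those genes 380 of 428 and 85 of 114 could not be measured without these cells, and 2 of the 428 were then lower. Neurogenic progenitor markers were higher in mutant than in control adult-profile cells (2357 and 644.8 CPM), and their part in the counts was not tested. Of the lists, 5 of 15 haem and iron genes were higher in the mutant and 1 (Hmox1) lower. Of 17 membrane genes 4 were higher, and of 15 late maturation genes 3, with 0 lower in both lists. Tfrc, the transferrin receptor, had 14 UMIs in control globin-rich cells and 100 in mutant ones (log2 2.82), and Cpox, a haem synthesis enzyme, 65 and 179 (1.44). With cells of 1000 or more genes left out, 0 of 12 haem and iron and 0 of 14 membrane genes were higher. Of 13 late maturation genes 1 (Isg20) was then higher and 1 (Btg2) lower, where Btg2, Epor and Pim1 had been the 3 higher. Over all genes 3.87% were higher and 4.09% lower in that setting. Alas2 had 5182 and 5170 UMIs (log2 -0.02) over all globin-rich cells. These cells mix the profiles, and Hmox1 had 104 and 36 UMIs in embryonic-profile cells and 3 and 2 in adult-profile cells. In adult-profile cells alone, a setting chosen after seeing the data, 5 of 14 haem and iron genes were higher and 0 lower. Over all genes 7.88% were higher and 1.28% lower in that setting.

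Globin RNA in cells under 10% globin, taken here as free RNA, differed between the libraries in its embryonic share. Single cells there reached 285 Hbb-y and 345 Hba-x UMIs in the control, and 45 of each gene in the mutant. Whether all of this RNA was free was not tested. In cells under 10% globin, embryonic genes were 6.807% (control) and 1.104% (mutant) of β-like UMIs, and Hba-x was 6.541% and 1.052% of α-like UMIs. The Hba-x shares rested partly on single cells, and were 3.799% and 0.679% without the cell with most Hba-x in each library. In cells under 1% globin, the β-like shares were 5.589% and 1.324% and the Hba-x shares 2.236% and 1.308%. Summed over globin-rich cells the β-like shares were 5.771% and 1.961%, and with each cell thinned to 1000 UMIs of the members, so that deep cells weigh no more than others, 10.8% and 4.27%. The control share was above the mutant share in 15 of 15 named cell classes other than the erythroid-like class, and the intervals did not overlap in 10. The classes of a library come from 1 cell suspension, so they repeat 1 comparison of pools and are not separate results. The embryonic share ran from 3.04% in endothelial-like to 10.0% in melanocyte-like cells in the control. In the mutant it ran from 0.292% in endothelial-like to 2.29% in ciliary margin-like cells. These mutant shares were 1 of 342 and 3 of 131 UMIs with overlapping intervals (0.00740 to 1.62 and 0.475 to 6.55), too few for an order. Levels of the 7 genes in the cells under 10% globin of those classes ran from 229.1 to 486.1 and from 180.6 to 513.8 CPM. The medians over classes were 339.4 and 276.7 CPM, and with all cells of the classes 1503.3 and 7548 CPM, in the other order.

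**Figure D5:**
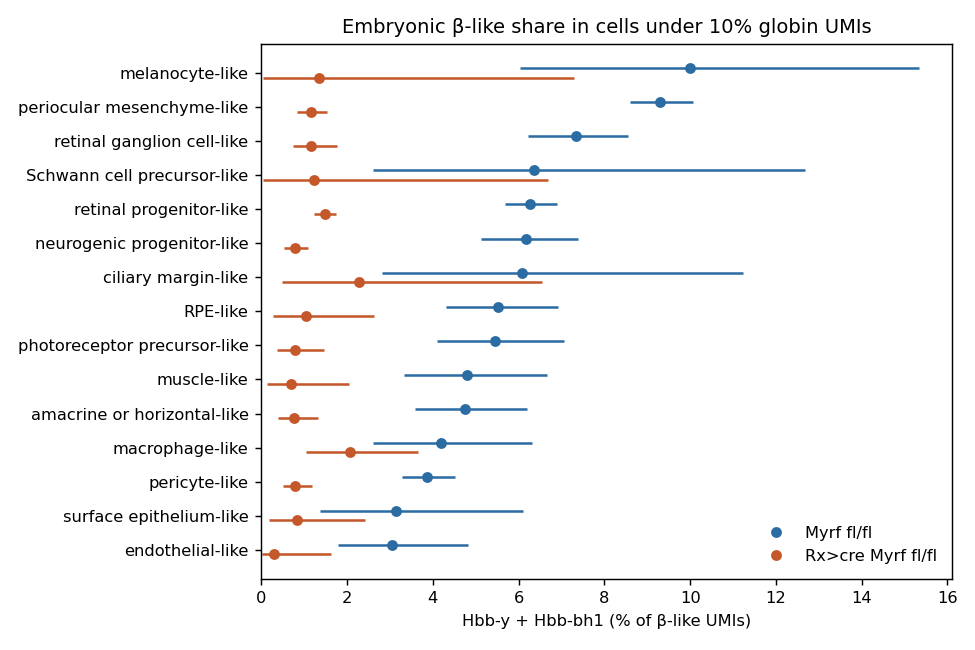
Embryonic share of β-like UMIs (percent, x axis) in cells under 10% globin of 15 named classes, for the control and the mutant, with exact 95% intervals as lines. The control point lies to the right of the mutant point in each class, and the classes of a library come from 1 cell suspension.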

How the data were processed

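Single-cell RNA-seq libraries of pooled e15.5 eye cups, 1 per genotype, were grouped by the genotype in the labels. Unnormalised UMI counts, aligned to mm10 with Cell Ranger, were deposited by the authors as 1 sparse matrix for each library. The processing notes name Cell Ranger 7.1.0 and Seurat 4.1.1, and the matrix headers give software version 3.1.0. Library totals were 132436812 and 135678970 UMIs. Cells with at least 200 genes and at most 15% mitochondrial UMIs were kept, and doublets called by Scrublet (scanpy 1.11.5) were removed. Its automatic threshold marked 0 mutant cells, so the control's threshold of 0.208 was used for both, which marked 366 (3.065%) and 350 (2.689%) cells. This was set after seeing the data, and is below the 10.4% and 11.1% that loading predicts, so doublets remain.

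Cells were clustered on 2000 variable genes, leaving out globins, marker and listed genes, with 30 components and 15 neighbours. Shares have exact Clopper-Pearson intervals and ratios exact conditional binomial intervals (scipy 1.17.1). Non-globin genes needed 20 UMIs per library (over both libraries together between genotypes), a count of 0 was set to 3, and a gene was left out where that bound fell on the other side of 1. Genes named were all members, those of 7 lists, and the 10 highest and 10 lowest by the smaller log2 ratio of the 2 libraries with at least 30 UMIs in each. Some genes that met this rule are not reported here. Of 7 other globin genes, 6 were in the files and 0 were measured. The members and lists were chosen with earlier results of these data known. The steps were tested on simulated data.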

Additional observations from a re-analysis of the deposited data

Results flagged for a closer look

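Globin-rich barcodes with under 200 genes were outside the comparisons, and some held the embryonic profile. There were 10 in the control and 3 in the mutant. The control number is given because it passes the 3 counts that a count of 0 allows, which is no expectation for these barcodes. That filter removed 11.8% and 9.38% of the embryonic-profile barcodes and 29.8% and 22.4% of the adult-profile barcodes.

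A UMI of a Y-linked gene, outside the globin measurements, was found in 8.772% (6.34 to 11.8) of mutant globin-rich cells and in 0.198% (0.00501 to 1.1) of control ones. An Xist UMI was found in 5.482% and 10.7%.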

How the results depend on the processing

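Of 133 values recomputed under other settings, 76 stayed within the counting interval of the value as reported (shares of UMIs included) or, for gene counts, within 1.5 times it, and 57 moved, among them both median globin levels by class, which have no interval. Only ratios of mutant to control could be scored as reversed, and 0 were. Some orders between other values did reverse, such as that of the co-expressing shares in cells of at most 2000 UMIs. The mutant's globin-rich and embryonic-profile shares were below the control's under each setting run. With all deposited barcodes the globin-rich share was 5.454% and 4.287%, with at most 5% mitochondrial UMIs 6.598% and 4.95%, at a globin share of 30% it was 4.751% in the control, and at 80% it was 3.784% and 2.992%. At 80% the embryonic-profile share was 10.27% and 3.958% and the co-expressing share 8.447% and 3.166%. Removing cells over 2000 UMIs left 15 and 11 globin-rich cells (0.691% and 0.486%, ratio 0.703, interval 0.292 to 1.64), of which 60% and 45.45% had the embryonic profile (ratio 0.758, interval 0.199 to 2.52) and 26.67% and 36.36% co-expressed, too few for an order. Asking for each kind at 1% gave a co-expressing share of 14.65% in the control, and at 10% it gave 5.743% and 1.316%. Subtracting free RNA gave 57 and 22 co-expressing cells, and thinning each cell to 1000 globin UMIs gave 55 and 21, leaving out 10 and 7 shallower cells. The embryonic shares outside globin-rich cells were recomputed in cells under 1% globin and without the highest cell, both chosen after seeing the data, and in these 2 settings the control stayed above the mutant. Leaving out shared barcodes, chosen likewise, gave embryonic-profile shares of 14.8% and 6.374%. Between profiles, scaling to the UMIs of all genes gave 375 higher and 96 lower, and a minimum of 50 UMIs gave 63 higher. Between genotypes, the same scaling gave 693 higher and 69 lower, a minimum of 50 UMIs 109 and 27, a globin share of 80% 92 and 71, and, chosen after seeing the data, leaving out cells with 1000 or more genes 88 higher. The cause of these shifts was not tested. The 10 genes highest and 10 lowest between profiles stayed past the fold wherever they could be measured in the 4 settings of all-gene scaling, 80% globin share, the 5 richest cells left out and cells of 1000 or more genes left out. These genes were chosen as the largest ratios in these same cells, so this adds no support. At a globin share of 80% only 4 of the 10 higher genes could be measured. No paired analysis was possible because each genotype has 1 library.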

Other observations

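The Hbq1 genes, α-like globins of the θ type that took no part in the measure, were read in both profiles. Hbq1a had 22 and 7 UMIs in embryonic-profile cells and 92 and 120 in adult-profile cells, and Hbq1b had 18 and 3 against 48 and 51. Hbb-bh2 had 1 UMI in embryonic-profile control cells and 1 in adult-profile mutant cells. Neuroglobin (Ngb) and myoglobin (Mb) had 0 in globin-rich cells.

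Prdx2, an abundant red cell peroxiredoxin, had log2 ratios between profiles of -1.06 and -0.96. Ftl1, the light chain of ferritin, stood at 0.34 and 0.97, and Blvrb, a biliverdin reductase, at -0.45 and -0.03.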
